A study of Mus musculus with 21 samples.

Results

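The last day of maturation of MEDEP cells, 72 h against 48 h after the switch to erythropoietin (Epo), was compared on 3 libraries of 72 h and 3 libraries of 48 h, chosen by their time labels. They are 6 of 21 libraries in 7 groups, and the other 15 libraries entered the filters on genes, the normalization and the estimate of spread. Some of them also gave the step before (36 h), the level at 24 h and the course over 6 times. MEDEP cells are erythroid progenitors derived from mouse embryonic stem cells, here the BRC5 line alone, and they proliferated with stem cell factor (SCF) and the glucocorticoid dexamethasone. Both groups had been moved to medium without SCF and dexamethasone and with 4 U/ml Epo, neither had received succinyl acetone, and no genetic change is named for either. Each group held 3 biological replicates per the design text, and strand-specific libraries were made from polyadenylated RNA.

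In late maturation erythroblasts fill with hemoglobin, leave the cell cycle, condense the nucleus and expel it, and the reticulocyte that remains then breaks down its mitochondria and ribosomes. RNA made early can therefore outlast transcription, and long-lived globin RNA comes to dominate the pool. Interferons act through factors such as STAT2 and IRF9, whose complex binds the interferon-stimulated response element (GAAA, any 2 bases, GAAA) and switches on interferon-stimulated genes.

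Promoters are shown for 5 interferon-induced genes and for Pklr. Cxcl10, Ifit3 and Isg15 are from the list of interferon-stimulated genes, which had the highest median change of all lists. Igtp and B2m are outside that list. All 5 windows shown hold the response element, while 13 of the 21 windows found for the list do. Pklr had the largest fall among called genes that averaged 100 counts or more without overlap of the groups. Each run holds the 250 bases before the RefSeq start on the gene's strand (GRCm38.p6), and capitals mark this response element on either strand, or AGATAA, which GATA factors bind, in Pklr. The windows are chr5:92348890-92349139 (minus strand), chr19:34583279-34583528 (plus), chr4:156200819-156201068 (minus), chr11:58199306-58199555 (plus), chr2:122147437-122147686 (plus) and chr3:89135892-89136141 (plus).
Cxcl10: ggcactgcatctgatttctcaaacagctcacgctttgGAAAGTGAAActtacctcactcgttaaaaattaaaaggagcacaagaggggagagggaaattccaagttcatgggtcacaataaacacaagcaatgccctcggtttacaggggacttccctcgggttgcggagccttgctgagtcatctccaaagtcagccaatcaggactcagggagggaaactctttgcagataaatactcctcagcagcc
Ifit3: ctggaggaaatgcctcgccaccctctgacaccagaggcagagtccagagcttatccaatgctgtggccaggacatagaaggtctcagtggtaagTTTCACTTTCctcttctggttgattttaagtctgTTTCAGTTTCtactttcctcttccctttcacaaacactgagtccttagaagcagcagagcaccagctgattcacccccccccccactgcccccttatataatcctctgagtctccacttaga
Isg15: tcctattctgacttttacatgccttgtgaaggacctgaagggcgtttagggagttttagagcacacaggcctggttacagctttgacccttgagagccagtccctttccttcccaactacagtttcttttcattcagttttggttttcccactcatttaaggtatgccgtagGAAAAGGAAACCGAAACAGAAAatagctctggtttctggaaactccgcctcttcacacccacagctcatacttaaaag
Igtp: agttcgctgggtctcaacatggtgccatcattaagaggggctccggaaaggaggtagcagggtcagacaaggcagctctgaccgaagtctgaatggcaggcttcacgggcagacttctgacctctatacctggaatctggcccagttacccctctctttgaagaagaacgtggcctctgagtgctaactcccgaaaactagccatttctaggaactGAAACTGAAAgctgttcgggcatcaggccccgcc
B2m: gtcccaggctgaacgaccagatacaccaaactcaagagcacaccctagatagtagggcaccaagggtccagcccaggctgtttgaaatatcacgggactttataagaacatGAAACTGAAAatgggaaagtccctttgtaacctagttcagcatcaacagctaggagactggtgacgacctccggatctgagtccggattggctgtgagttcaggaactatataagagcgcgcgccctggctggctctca
Pklr: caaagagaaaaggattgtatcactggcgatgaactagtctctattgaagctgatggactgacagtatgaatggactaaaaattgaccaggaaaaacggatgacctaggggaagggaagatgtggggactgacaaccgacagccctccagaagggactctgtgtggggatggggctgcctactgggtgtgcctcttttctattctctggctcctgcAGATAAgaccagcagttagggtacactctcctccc
The match begins 213 bases before the start in Cxcl10, 139 in B2m and 34 in Igtp. In Ifit3 matches begin 156 and 122 bases before it, and in Isg15 3 overlapping matches begin 78, 72 and 66 bases before it. The match of Pklr begins 35 bases before the start.

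RefSeq windows of 250 bases before to 50 after the start were found by symbol for 9565 of the 12360 tested gene IDs, which are 9552 symbols. The response element was in 13 of the 21 windows found for interferon-stimulated genes (61.9%), in 72 of 1139 windows of genes called higher by at least 2-fold (6.32%), in 53 of 1270 of genes called lower by at least 2-fold (4.17%) and in 315 of all 9552 (3.30%). CACGTG, the E-box that MYC and MXD proteins bind, was in 12.6% of windows of genes called higher, 7.40% of those called lower and 9.92% of all. For the other 6 motifs, counted on both strands like these, the shares were as follows. AGATAA was in 9.22, 7.24 and 7.40% of the windows of genes called higher, called lower and tested, and TTCNNNGAA (STAT) in 9.48, 7.01 and 7.44%. TGACTCA (AP-1 and NFE2) was in 5.18, 3.31 and 3.52%, TGTTTAC (FOXO) in 3.60, 2.68 and 2.62%, TTTCGCGC (E2F) in 0.439, 0.945 and 0.628%, and CACCC (Kruppel-like factors) in 63.0, 62.1 and 61.1%. In the 21 windows of interferon-stimulated genes AGATAA was in 5, TTCNNNGAA in 4, TGACTCA in 4, TGTTTAC in 1, CACCC in 16, and CACGTG and TTTCGCGC in 0. A match describes letters only.

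The 72 h libraries held 27722896, 36055087 and 35387942 estimated counts, and the 48 h libraries 35927641, 30528352 and 22277545. Globin genes took 31.7, 36.9 and 37.0% of the counts at 72 h, against 27.8, 28.7 and 26.0% at 48 h. TPM divides counts by transcript length and sets every library to 1 total. The globin share of TPM was 83.5, 89.2 and 79.9% at 72 h, against 80.6, 80.9 and 69.9% at 48 h. The length implied by counts and TPM differed between libraries. For Hbb-bs, relative to the median gene, it was 0.050, 0.045 and 0.113 at 72 h, against 0.060, 0.061 and 0.128 at 48 h. With 1 fixed length per gene the globin share was 64.2, 70.5 and 69.3% at 72 h, against 62.2, 62.5 and 58.9% at 48 h. Mitochondrially encoded genes took 1.95, 1.30 and 1.44% of counts at 72 h, against 2.63, 2.78 and 2.64% at 48 h. The libraries numbered 3 stood apart in how counts were split between globin copies: Hba-a1 held 34.4, 24.1 and 71.7% of the alpha globin counts at 72 h, against 24.5, 24.5 and 65.4% at 48 h. All 9 erythroid markers in the tables were tested, with sums of 163750, 204267 and 431356 normalized CPM, counts relative to a library size scaled with TMM factors, at 72 h, against 185997, 196559 and 285555 at 48 h, most of it Hba-a1 and Hbb-bt.

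Levels are given on 2 scales. The first is CPM of the library size scaled by TMM (trimmed mean of M values), which centers the bulk of genes, tested with edgeR. The second is TPM, a share of all RNA molecules in the library, tested with limma on log2(TPM + 1). A gene is called higher or lower at a Benjamini-Hochberg adjusted p of at most 0.05. On the TMM scale 3058 of 12360 tested genes were higher at 72 h (24.7%) and 4264 were lower (34.5%), with a median log2 change of -0.05. Of these, 1546 were at least 2-fold higher and 1606 at least 2-fold lower, and the groups did not overlap in CPM for 56.0% of the tested genes. On the TPM scale 437 of 9525 genes were higher (4.59%) and 5651 lower (59.3%), with a median of -0.45. The median change of TPM was -0.25, -0.53 and -0.57 in the pairs of libraries numbered 1, 2 and 3.

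The scales were set side by side for 9502 genes. Both called 437 genes higher and 3889 lower, and no gene called higher in TPM was called lower or not called on the TMM scale. Of the genes higher on the TMM scale, 1584 were not called in TPM and 143 were lower there. A further 1618 genes, not called on the TMM scale, were lower in TPM. With the total rescaled without globin genes, TPM called 1475 genes higher, 24.4% of its calls against 7.18% with them. Rescaled without the 100 highest genes, it called 2064 higher, 34.5% of its calls. The size factors of DESeq2 moved the median of all genes to 0.08 on the count scale, a shift of over 0.1, with 3750 genes higher and 3627 lower. Neither scale measures RNA per cell, and in bulk RNA fewer cells of a type and less RNA per cell cannot be told apart.

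**Figure D1:**
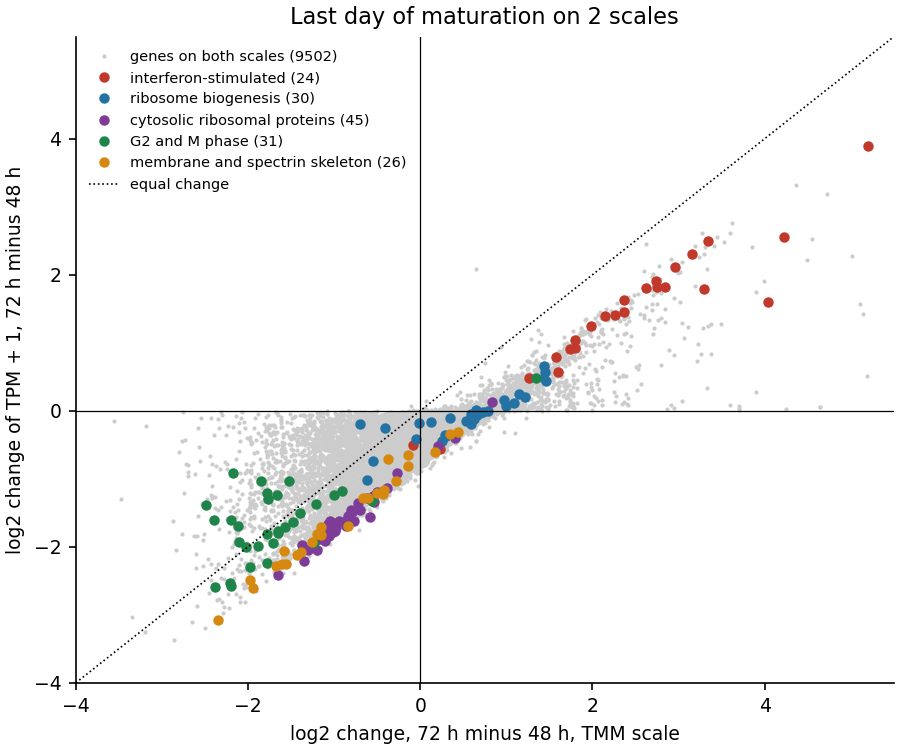
Log2 change from 48 h to 72 h on the TMM scale (x) and of TPM + 1 (y) for 9502 genes, with 5 lists in color and the line of equal change dotted; 5 genes lie beyond the axes. Most of the cloud lies below 0 on the y axis, while interferon-stimulated genes are high on both scales except for 2 members.

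Interferon-stimulated genes were higher at 72 h almost as a whole. Of 29 tested members (30 in the tables) 27 rose and none fell on the TMM scale, where 24.7% of all tested genes rose, and the median log2 change was 2.62. In TPM 21 of 24 rose, against 4.59% of all tested genes, and 2 fell (none without library 3 of 48 h or library 2 of 72 h), with a median of 1.53. By mean level, 28 of the 29 members were highest at 72 h among the 6 times, against 3539 of all 12360 genes. The summed level of the list was 17910, 21618 and 29464 CPM at 72 h, against 5122, 4189 and 5407 CPM at 48 h. The members that did not pass were Eif2ak2, a kinase that senses double-stranded RNA, at 0.23, and the RNA helicase Dhx58, at -0.09 (TPM -0.56 and -0.51).

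Cxcl10, a chemokine that attracts T cells (chr5:92346638-92348889), had 199.7, 252 and 331 CPM at 72 h, against 5.79, 6.14 and 9.76 CPM at 48 h. Every 72 h library was thus far above every 48 h library, and the log2 change was 5.20 ± 0.18 (SE, n = 3 each, adjusted p = 1.1e-13) and 3.90 in TPM. Ifit3, of the IFIT family that binds foreign RNA, had 75.2, 74.3 and 148 CPM at 72 h, against 7.43, 3.32 and 4.88 at 48 h (log2 change 4.22 ± 0.32, adjusted p = 8.3e-10), with library 3 of 72 h the highest. Its near copy Ifit3b changed by 3.98, and reads of the pair may have been split by the counting. Isg15, a ubiquitin-like protein that is joined to other proteins, had 1085, 1515 and 2323 CPM at 72 h, against 157, 146 and 183 at 48 h. It rose by 3.34 ± 0.27 on the log2 scale (adjusted p = 1.7e-09) with no overlap. Ifit1 had 2553, 2897 and 4239 CPM at 72 h, against 623, 419 and 536 at 48 h, a log2 change of 2.62 ± 0.24 (adjusted p = 1.4e-08).

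The list also holds factors that carry the interferon signal, of which 3 are given. Stat2 had 633, 701 and 997 CPM at 72 h, against 261, 189 and 248 at 48 h, and changed by 1.74 ± 0.14 (adjusted p = 1.1e-09). Its groups did not overlap. Irf9, its partner in that complex, changed by 1.26 ± 0.11 (adjusted p = 4.2e-09) and by 0.49 in TPM, where its adjusted p of 0.053 in limma missed the threshold. It passed with the replicate block (adjusted p = 0.023), and without library 3 of 48 h (0.77, adjusted p = 0.0022) or library 2 of 72 h (0.76, adjusted p = 0.0023). Irf9 overlaps Rnf31 on the same strand, which had means of 175 CPM at 72 h and 33.0 CPM at 48 h. Irf7, which amplifies interferon production, had 1661, 1877 and 2691 CPM at 72 h, against 603, 498 and 689 at 48 h, a log2 change of 1.80 ± 0.18 (adjusted p = 4.3e-08).

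The next 4 genes are outside that list and were among the 10 largest rises in TPM or, for B2m, the 10 genes highest in TPM at 72 h. B2m, the light chain of MHC class I, which like Trim69 below overlaps Patl2 on the opposite strand (means of 91.8 CPM at 72 h and 24.0 CPM at 48 h), had 7600.3, 6204 and 7289 CPM at 72 h, against 1863, 1227 and 1229 CPM at 48 h, with no overlap, and rose by 2.29 ± 0.18 (adjusted p = 1.6e-09) and by 1.58 in TPM. Igtp, a GTPase that interferon induces and that overlaps its relative Irgm2 on the same strand (means of 248 CPM at 72 h and 57.8 CPM at 48 h), had 1104, 1114 and 1729 CPM at 72 h, against 106, 87.7 and 128 CPM at 48 h, a log2 change of 3.62 ± 0.16 (adjusted p = 9.0e-13). Cd274, which codes for the checkpoint ligand PD-L1, had 429, 532 and 844 CPM at 72 h, against 54.9, 37.8 and 63.8 at 48 h. The groups did not overlap, and it rose by 3.53 ± 0.22 (adjusted p = 5.6e-11). Nfkbia, the inhibitor that NF-kB itself induces (chr12:55489410-55492647), had 395, 515 and 310.4 CPM at 72 h, against 17.2, 23.9 and 18.2 at 48 h. Its log2 change of 4.36 ± 0.18 (adjusted p = 6.4e-13) was also larger than its change from 36 h to 48 h, by 3.04 ± 0.32 (adjusted p = 8.6e-07).

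The proteasome list held both directions, and it is split here by the type of particle, after the values were seen. The 5 genes of the immunoproteasome and its activator all rose, with a median of 2.45 on the TMM scale and 0.97 in TPM, while of the other 34 genes 10 rose and 12 fell, with medians of -0.08 and -0.77. Those 10 and 12 are shares near the 24.7% and 34.5% of all tested genes. Psmb10, a catalytic subunit of the immunoproteasome, had 18.4, 24.4 and 50.5 CPM at 72 h, against 3.89, 3.07 and 4.48 at 48 h (log2 change 3.04 ± 0.30, adjusted p = 2.5e-08). Psme2, of the activator, had 151, 208 and 239 CPM at 72 h, against 35.9, 35.4 and 38.3 at 48 h, and changed by 2.45 ± 0.13 (adjusted p = 7.9e-12). Neither gene's groups overlapped. Psmd14, a proteasomal deubiquitinase among the other 34 genes, was lower, with 33.3, 28.9 and 37.7 CPM at 72 h, against 83.6, 82.6 and 85.3 at 48 h (log2 change -1.33 ± 0.08, adjusted p = 3.9e-11).

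Macrophages respond to interferon, and 12 of their markers summed to 10.2 to 12.3 CPM at 72 h, against 8.33 to 11.1 at 48 h, with Csf1r carrying 8.74 CPM at 72 h and 8.24 CPM at 48 h. The defining markers Adgre1, C1qa and Lyz2 had means of 0.0634, 0.0648 and 0.0855 CPM at 72 h, and of 0.0476, 0 and 0 CPM at 48 h, so they were at or near 0 in both groups. Interferons and their receptors are given further on among the lists put together after the values were seen.

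**Figure D2:**
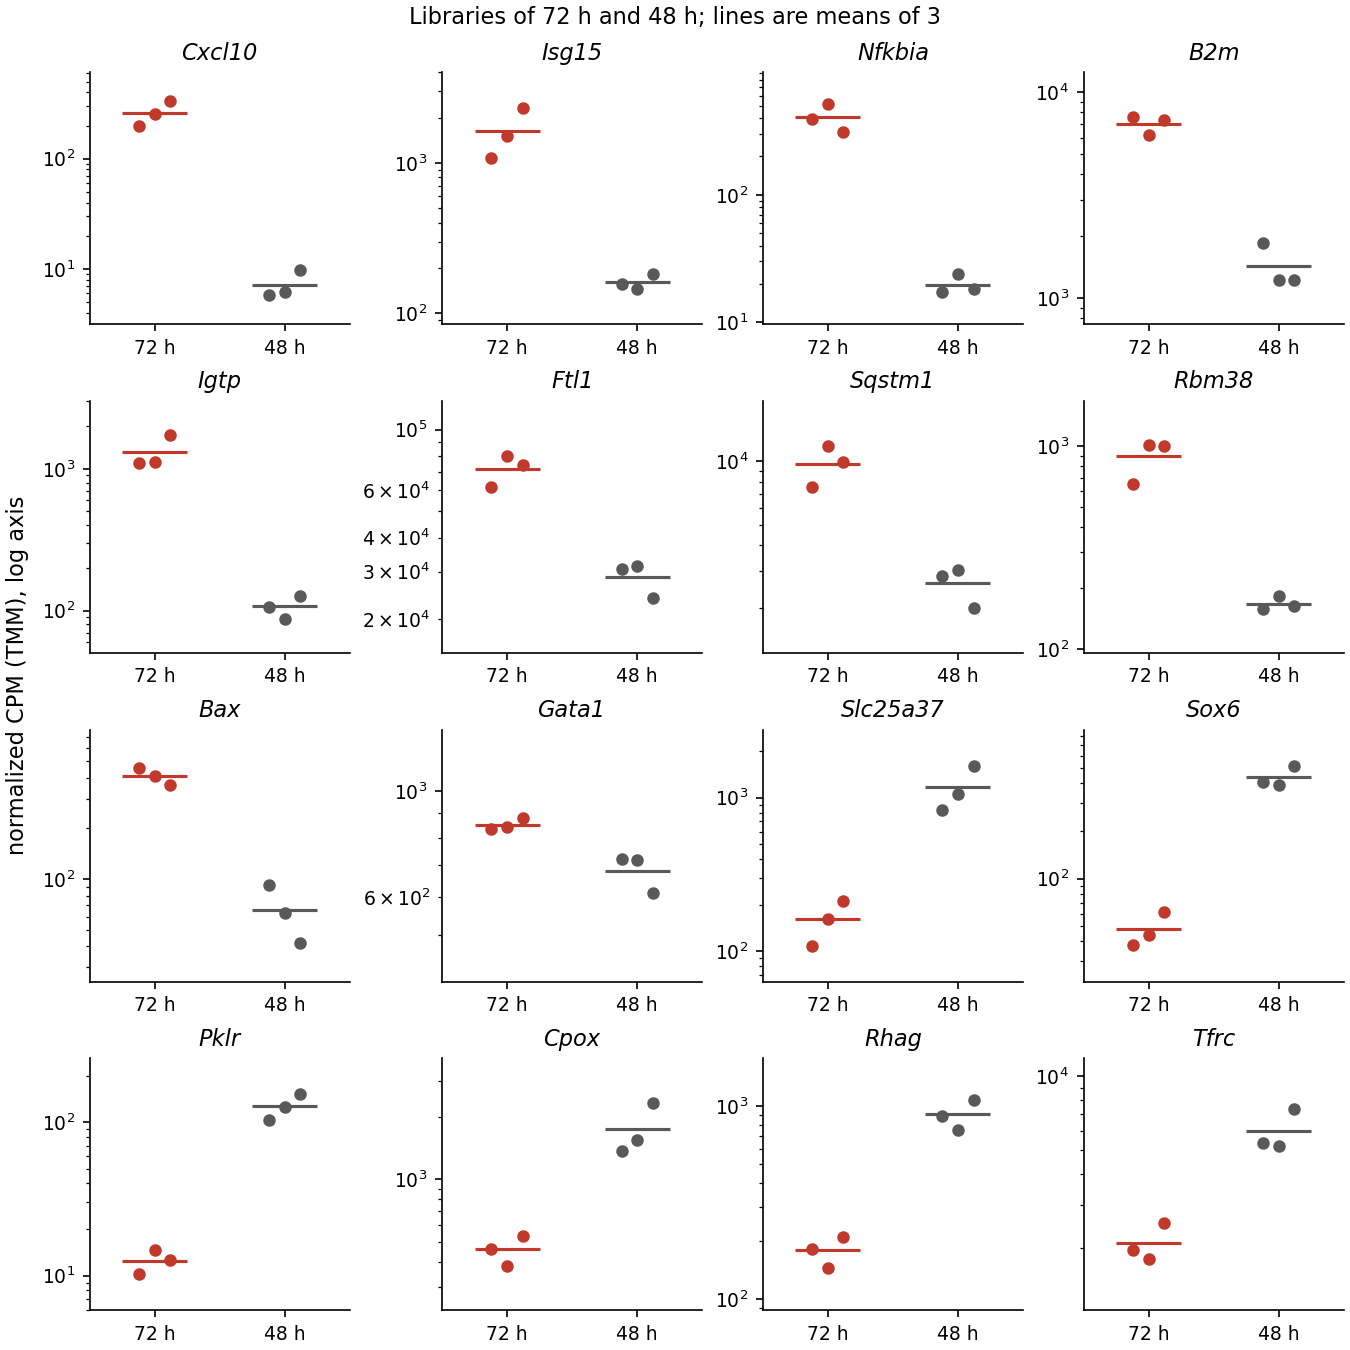
Normalized CPM (log axis) of 16 genes in each library of 72 h (left, red) and 48 h (right, grey), with lines at the means of 3. The groups do not overlap in any panel, and the gap is widest for Cxcl10 and Nfkbia among the rises and for Pklr and Sox6 among the falls.

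More globin genes rose than fell on the count scale, with a split among copies that near-identical sequence makes uncertain. Of the 10 globin genes tested 6 rose and 1 fell (0 to 2 on leaving out 1 library), with a median of 0.87, and in TPM 3 of 9 rose and 2 fell (0 to 2 on leaving out 1 library). Alpha globin, summed over Hba-a1 and Hba-a2, had 247227, 362451 and 372090 CPM at 72 h, against 210313, 231070 and 192924 CPM at 48 h. The groups did not overlap, and the sum changed by 0.63 ± 0.16 (adjusted p = 0.0025) on the TMM scale and by 0.15 in TPM, with an adjusted p of 0.30. Adult beta globin, summed over Hbb-bs and Hbb-bt, had 308187, 499304 and 502614 CPM at 72 h, against 301539, 317531 and 270021 CPM at 48 h. Library 1 of 72 h lay within the range of 48 h, and the log2 change of 0.56 ± 0.21 had an adjusted p of 0.028. That call was lost without library 1 or 3 of 48 h or library 2 or 3 of 72 h, where the change was 0.44 to 0.56 and the adjusted p 0.057 to 0.11. In TPM the sum changed by 0.11 (adjusted p = 0.63).

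Of the 6 minor globins, at low levels, 3 rose on both scales. Hba-x, the embryonic zeta globin, had 9.95, 36.8 and 26.3 CPM at 72 h, against 1.90, 3.57 and 2.56 at 48 h (log2 change 3.19 ± 0.34, adjusted p = 7.8e-08). The pair Hbq1a and Hbq1b, theta globins of near-identical sequence, changed by 1.94 ± 0.19 and 1.58 ± 0.20 (adjusted p = 1.8e-08 and 8.1e-07). In TPM the 3 genes rose by 1.84, 1.17 and 0.82. The embryonic Hbb-y rose on the TMM scale (1.35 ± 0.43, adjusted p = 0.0099) and was at 0.49 in TPM (adjusted p = 0.27). Hbb-bh1 was at -0.36 ± 0.42 on the TMM scale (adjusted p = 0.47) and fell in TPM (-1.09, adjusted p = 0.044). Hbb-bh2, with means of 0.568 CPM at 72 h and 1.40 CPM at 48 h, was the gene that fell on the TMM scale (-1.29 ± 0.49, adjusted p = 0.029), a call lost without library 2 or 3 of 48 h or 1 or 2 of 72 h, and it was too low to be tested in TPM.

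No heme synthesis enzyme rose on either scale, although 1 did with the size factors of DESeq2. Of 8 genes 6 fell on the TMM scale (median -0.80) and all 8 fell in TPM (median -1.41). Cpox, the mitochondrial coproporphyrinogen oxidase, had 461, 382 and 530.1 CPM at 72 h, against 1372, 1557 and 2346 CPM at 48 h, lower in every library (log2 change -1.94 ± 0.16, adjusted p = 3.5e-09). Alad, which acts on the product of the first enzyme, had 37.6, 46.1 and 51.6 CPM at 72 h, against 128, 155 and 202 CPM at 48 h, a log2 change of -1.84 ± 0.15 (adjusted p = 2.2e-09). Alas2, that first and rate-limiting enzyme, had 11199, 16066 and 19839 CPM at 72 h, against 15240.5, 16030.5 and 15029 CPM at 48 h. Its groups overlapped, with a log2 change of 0.02 ± 0.15 (adjusted p = 0.90), while in TPM it fell by 0.70 (adjusted p = 0.0079 in limma). Without library 3 of 48 h or library 2 of 72 h the fall in TPM was 0.51 or 0.44 and missed the threshold (adjusted p = 0.053 and 0.060).

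Among iron genes the ferritins rose while the transferrin receptor and mitoferrin fell. In the list of 21 genes 7 rose and 11 fell (median -0.41), beside 24.7% and 34.5% of all tested genes. In TPM 2 rose (6 with the total rescaled without globin genes) and 14 fell (median -0.87), beside 4.59% and 59.3% of all tested genes. Ftl1, the ferritin light chain, had 61716, 80149.8 and 73894 CPM at 72 h, against 30701, 31568 and 23960.5 CPM at 48 h. Fth1, the heavy chain, had 11824, 18329 and 18302 CPM at 72 h, against 6903, 7460.2 and 5693 CPM at 48 h. Neither gene's groups overlapped, and the log2 changes were 1.32 ± 0.16 (adjusted p = 4.8e-07) and 1.27 ± 0.13 (adjusted p = 7.0e-08), with 0.86 and 0.52 in TPM. These were the 2 genes of the list that rose in TPM, Fth1 no longer without library 2 of 48 h (0.46, adjusted p = 0.052) or library 3 of 72 h (0.26, adjusted p = 0.12). Slc25a37, the mitoferrin that brings iron into mitochondria (chr14:69241848-69285112), had 109, 162 and 212 CPM at 72 h, against 828, 1062 and 1618 CPM at 48 h. It was several times lower in every 72 h library (log2 change -2.86 ± 0.22, adjusted p = 1.2e-09; -3.37 in TPM). Tfrc, the transferrin receptor, had 1957, 1794 and 2528 CPM at 72 h, against 5348, 5203 and 7377 CPM at 48 h, a log2 change of -1.51 ± 0.13 (adjusted p = 5.4e-09). Hmox1, which breaks heme down, had 1788, 1999 and 1730.4 CPM at 72 h, against 752, 798 and 602 at 48 h, and rose by 1.36 ± 0.29 (adjusted p = 3.6e-04), while its change of 0.61 in TPM did not pass (adjusted p = 0.070), except without library 2 of 72 h (0.82, adjusted p = 0.028).

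Genes of the red cell membrane were lower. Of 27 genes for band 3, spectrins, blood group proteins and their partners, 20 fell and 1 rose (0 to 3 on leaving out 1 library) on the TMM scale (median -0.84), and 24 of 26 fell and none rose in TPM (median -1.69). Rhag, the Rh-associated glycoprotein, had 183, 145 and 209 CPM at 72 h, against 895, 757 and 1075 CPM at 48 h (log2 change -2.34 ± 0.13, adjusted p = 7.7e-12). Ank1, ankyrin, which ties spectrin to band 3, had 463, 513 and 597 CPM at 72 h, against 1915, 1984 and 2135 CPM at 48 h, and fell by 1.94 ± 0.09 (adjusted p = 8.3e-13). Every 72 h library was below every 48 h library in both genes. Epb41, protein 4.1, was an exception among the abundant members, with 12229, 21823 and 21871 CPM at 72 h, against 13801, 15577 and 14732 CPM at 48 h, groups that overlapped (log2 change 0.34 ± 0.15, adjusted p = 0.055). It passed without library 1 of 72 h (0.57, adjusted p = 1.9e-05) and with the size factors of DESeq2 (0.48, adjusted p = 0.0091). Of 12 surface proteins used to stage erythroblasts 9 fell and 1 rose (median -0.51). Among them the integrin Itga4, which holds erythroblasts to macrophages and matrix, had 135, 102 and 123.2 CPM at 72 h, against 449.7, 365 and 471 at 48 h (log2 change -1.84 ± 0.11, adjusted p = 2.9e-11).

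The genes of the ribosome itself and those that build it went opposite ways on the count scale. Of 45 cytosolic ribosomal protein genes 42 fell and 2 rose (median -0.97), and 41 were at their lowest mean of the 6 times at 72 h, against 4030 of all 12360 genes. In TPM 42 fell and none rose (median -1.64), and their summed TPM was 2961, 1913 and 2966 at 72 h, against 5666, 6640 and 9735 at 48 h. Of 30 ribosome biogenesis genes 21 rose and 4 fell (median 0.64), while in TPM 4 rose and 4 fell (1 to 5 and 2 to 6 on leaving out 1 library), and the median of -0.05 has the other sign. With the TPM total rescaled without globin genes 13 rose and 3 fell (median 0.32), and without the 100 highest genes 19 rose and 3 fell (median 0.52), so the sign was then that of the count scale. Ribosomal protein genes have many pseudogenes, so their counts are uncertain. Dkc1, Gnl3 and Rpl3, described next, overlap Mpp1, Pbrm1 and Syngr1 on the opposite strand, which had means of 297, 536 and 79.4 CPM at 72 h and of 681, 548 and 39.4 CPM at 48 h, and whether counting used strand is not given in the sources used here.

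Rps4x, a small-subunit protein, had 104, 111 and 85.5 CPM at 72 h, against 259, 373 and 315 CPM at 48 h (log2 change -1.66 ± 0.13, adjusted p = 1.2e-09). Rpl3, which shapes the peptidyl transferase center, had 139.6, 116 and 107 CPM at 72 h, against 266, 328 and 349 CPM at 48 h (log2 change -1.38 ± 0.11, adjusted p = 9.7e-10). Both were lower in all 72 h libraries. Wdr43, of the small-subunit processome, had 35.0, 32.8 and 38.6 CPM at 72 h, against 13.2, 12.2 and 13.4 at 48 h, and changed by 1.46 ± 0.10 (adjusted p = 1.0e-10). Dkc1, the pseudouridine synthase dyskerin, had 30.4, 89.0 and 67.9 CPM at 72 h, against 17.3, 26.7 and 24.9 at 48 h (log2 change 1.45 ± 0.24, adjusted p = 2.7e-05). Gnl3, nucleostemin, had 169, 154 and 110.0 CPM at 72 h, against 54.3, 57.9 and 47.3 at 48 h (log2 change 1.44 ± 0.12, adjusted p = 3.5e-09). For these 3 genes the groups did not overlap, and they were also higher in TPM, by 0.44, 0.57 and 0.65. In TPM the call of Wdr43 was lost without library 1 or 2 of 48 h or 1 or 3 of 72 h, that of Dkc1 without library 1 of 48 h or 2 or 3 of 72 h, and that of Gnl3 without library 1 of 72 h, with changes of 0.32 to 0.50. Of 14 genes for ribosome rescue and recycling 4 rose and 5 fell (2 rose without library 2 of 48 h or of 72 h), among the rises Edf1, which acts at collided ribosomes (log2 change 1.22 ± 0.11, adjusted p = 7.5e-09). As shares these counts lie near the 24.7% and 34.5% of all tested genes (list median 0.11). In TPM 1 of the 14 rose and 10 fell (median -0.52).

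Mitochondrial genes were lower. All 13 mitochondrially encoded genes of the respiratory chain fell on both scales, with medians of -1.12 and -1.90. mt-Nd3, of complex I, had 11.7, 12.0 and 9.48 CPM at 72 h, against 55.6, 54.6 and 45.1 CPM at 48 h (log2 change -2.23 ± 0.13, adjusted p = 2.2e-11). Of 33 nuclear genes of the chain 25 fell and 2 rose (1 without library 1 of 48 h; median -0.63), and in TPM 32 fell and none rose (median -1.27). Ndufa9, also of complex I, had 10.8, 10.1 and 9.81 CPM at 72 h, against 31.0, 33.0 and 33.1 CPM at 48 h. The groups were wide apart relative to their spread (log2 change -1.66 ± 0.07, adjusted p = 7.4e-13). Of 30 mitochondrial ribosomal proteins 19 fell and 2 rose (median -0.56).

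**Figure D3:**
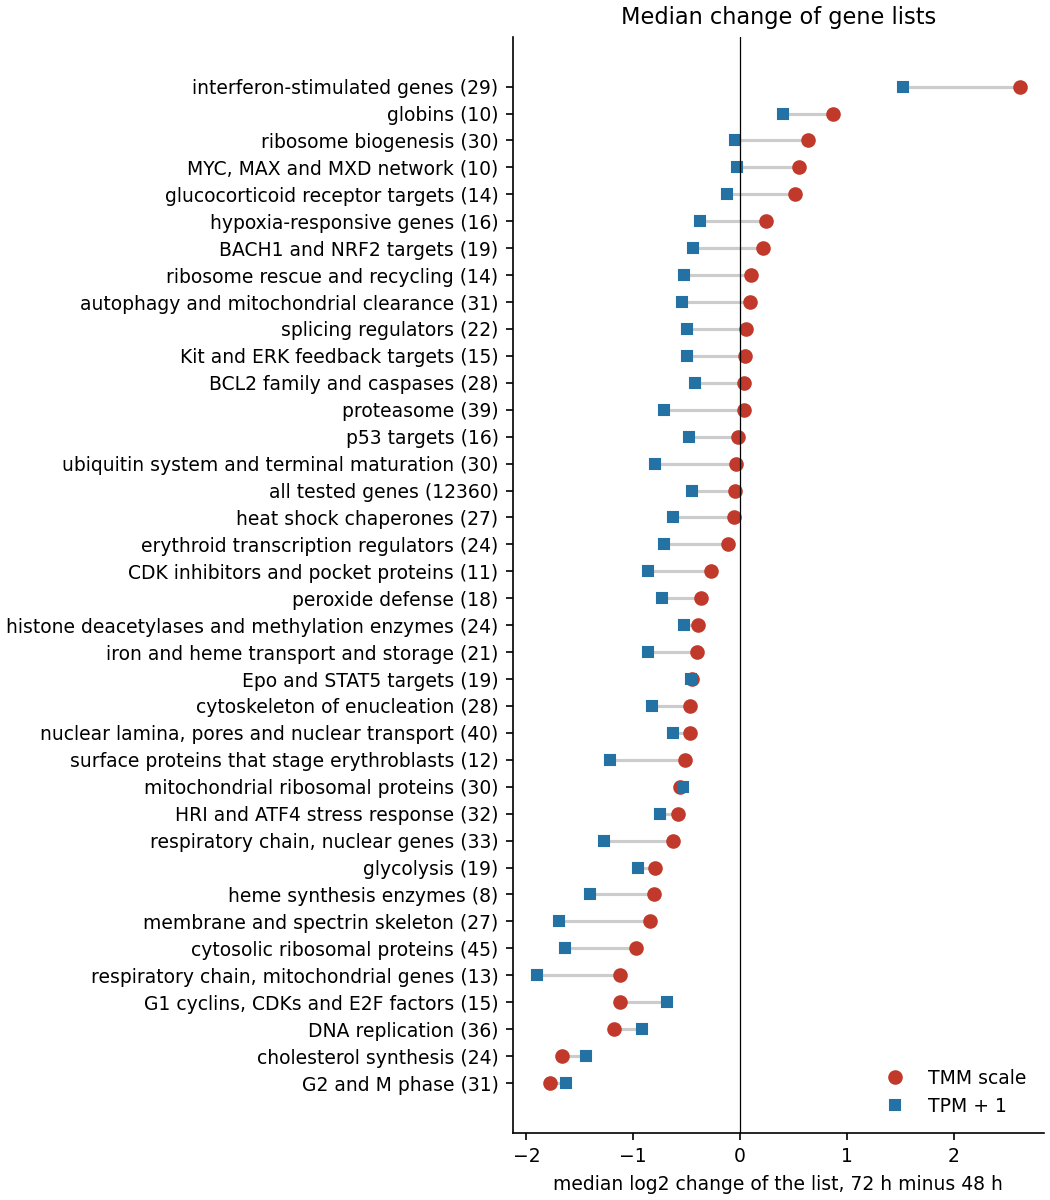
Median log2 change from 48 h to 72 h of 37 gene lists and of all tested genes, on the TMM scale (red circles) and of TPM + 1 (blue squares), with the number of tested members in brackets. Interferon-stimulated genes head the plot at 2.62 and 1.53, and genes of the G2 and M phases close it at -1.78 and -1.63.

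Genes of cell division fell. Of 31 genes of the G2 and M phases 30 fell and 1 rose (median -1.78), and in TPM 30 fell and none rose (1 without library 3 of 48 h or 1 of 72 h; median -1.63). Top2a, the topoisomerase of mitotic chromosomes, had 37.3, 45.5 and 64.8 CPM at 72 h, against 214, 208 and 349.9 CPM at 48 h (log2 change -2.39 ± 0.19, adjusted p = 1.1e-09). Aurkb, a kinase of chromosome segregation and cytokinesis, had 1.96, 2.46 and 3.61 CPM at 72 h, against 13.8, 12.5 and 19.1 CPM at 48 h (log2 change -2.49 ± 0.18, adjusted p = 3.7e-10). Both were lower in every 72 h library. The exception was Nusap1, a spindle microtubule protein, with 247, 624 and 534 CPM at 72 h, against 148, 163 and 246 CPM at 48 h (log2 change 1.34 ± 0.22, adjusted p = 2.5e-05). Of 36 DNA replication genes 29 fell and 1 rose (median -1.18), and 33 were at their lowest mean of the 6 times at 72 h. Lig1, the replicative DNA ligase, had 5.64, 7.71 and 9.95 CPM at 72 h, against 25.5, 27.9 and 43.5 CPM at 48 h, a 4.14-fold lower mean (log2 change -2.05 ± 0.19, adjusted p = 8.4e-09). Pcna, the sliding clamp, had 69.6, 46.5 and 55.3 CPM at 72 h, against 57.3, 56.1 and 77.1 CPM at 48 h, groups that overlapped (log2 change -0.15 ± 0.14, adjusted p = 0.37).

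The brakes of the cell cycle did not move as one. Of 11 inhibitors of cyclin-dependent kinases and pocket proteins 2 rose and 5 fell (median -0.27), and in TPM none rose (2 with the total rescaled without globin genes). The inhibitor Cdkn1b, p27, had 1156, 1485 and 1143 CPM at 72 h, against 701, 835 and 814 CPM at 48 h, a log2 change of 0.69 ± 0.12 (adjusted p = 5.4e-05) but -0.07 in TPM (adjusted p = 0.74), or 0.47 with the total rescaled without globin genes. The pocket protein Rbl2, p130, had 18.1, 20.4 and 21.6 CPM at 72 h, against 78.6, 70.7 and 71.5 CPM at 48 h, lower throughout (log2 change -1.88 ± 0.09, adjusted p = 2.7e-12). Among 15 G1 cyclins, kinases and E2F factors 11 fell and 2 rose (1 without library 2 of 48 h or 3 of 72 h; median -1.12). Cdk6, a kinase that drives entry into the cell cycle, had 58.6, 58.9 and 67.0 CPM at 72 h, against 233, 218 and 250.2 CPM at 48 h (log2 change -1.93 ± 0.14, adjusted p = 3.4e-10). Cdk4, its relative, which overlaps Tspan31 on the opposite strand, went the other way, with 143, 76.8 and 57.0 CPM at 72 h, against 34.3, 23.4 and 23.7 CPM at 48 h (log2 change 1.76 ± 0.22, adjusted p = 9.3e-07).

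Cholesterol synthesis genes fell, and glycolysis genes were less uniform. Of 24 genes of cholesterol synthesis 22 fell and none rose (1 without library 1 of 48 h; median -1.67), and all 24 fell in TPM (median -1.45). Fdps, the farnesyl diphosphate synthase, which overlaps the weakly counted Gm43738 on the same strand, had 83.5, 76.3 and 96.7 CPM at 72 h, against 488, 389 and 579 CPM at 48 h (log2 change -2.50 ± 0.12, adjusted p = 2.7e-12). In glycolysis 10 of 19 genes fell and 1 rose (median -0.80), but the median change within the pairs of libraries numbered 1, 2 and 3 was 0.0067, -0.83 and -0.62 in CPM and -0.04, -1.59 and -1.28 in TPM, so pair 1 showed no fall. Pklr, the pyruvate kinase of red cells and liver (chr3:89136142-89146784), had 10.2, 14.8 and 12.6 CPM at 72 h, against 104, 126 and 153 CPM at 48 h. This was a 10.2-fold lower mean with no overlap (log2 change -3.35 ± 0.13, adjusted p = 4.6e-13; -3.04 in TPM), and its promoter is the one printed above. Slc1a5, a glutamine carrier, had 50.7, 37.1 and 48.6 CPM at 72 h, against 266, 257 and 298 CPM at 48 h (log2 change -2.59 ± 0.11, adjusted p = 6.4e-13).

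Erythroid transcription regulators divided. Of 24 genes 10 rose and 11 fell on the TMM scale (median -0.11), beside 24.7% and 34.5% of all tested genes. In TPM none rose (2 without library 2 of 72 h) and 16 fell (median -0.72), beside 59.3% of all tested genes that fell. With the TPM total rescaled without globin genes 5 rose and 12 fell, and without the 100 highest genes 9 rose and 12 fell (median -0.25). On the TMM scale 5 rose with no count filter. Sox6, which silences embryonic globin genes together with Bcl11a (chr7:115470872-116038796), had 38.0, 44.2 and 61.0 CPM at 72 h, against 409.9, 391 and 515 CPM at 48 h. All 72 h libraries were several times below those of 48 h (log2 change -3.20 ± 0.14, adjusted p = 8.7e-13; -3.25 in TPM). Bcl11a had 5.51, 5.71 and 5.88 CPM at 72 h, against 10.3, 14.03 and 16.6 CPM at 48 h (log2 change -1.24 ± 0.14, adjusted p = 1.6e-07). Klf1, which activates adult beta globin, had 76.4, 67.2 and 65.0 CPM at 72 h, against 130.2, 150.3 and 169 CPM at 48 h (log2 change -1.11 ± 0.11, adjusted p = 2.2e-08). Both were lower in all 72 h libraries. Gfi1b, a transcriptional repressor, had 624, 765 and 857 CPM at 72 h, against 434, 447 and 357 CPM at 48 h (log2 change 0.86 ± 0.11, adjusted p = 1.0e-06). Its change of 0.09 in TPM did not pass (adjusted p = 0.69), except without library 2 of 72 h (0.36, adjusted p = 0.044). Tal1, a partner of GATA1, had 1974, 2474 and 2244 CPM at 72 h, against 1397, 1499 and 1369 CPM at 48 h (log2 change 0.65 ± 0.08, adjusted p = 8.1e-07), and -0.10 in TPM, or 0.45 with the total rescaled without globin genes.

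Gata1, the master factor of the lineage, shows how the scales part. It had 833, 840.3 and 881 CPM at 72 h, against 720.0, 717 and 611 CPM at 48 h, and rose by 0.32 ± 0.08 with no overlap (adjusted p = 0.0020 in edgeR), though with no count filter the change was 0.23 (adjusted p = 0.053). In TPM it had 84.8, 48.2 and 89.3 at 72 h, against 92.8, 85.7 and 122 at 48 h, and fell by 0.46 (adjusted p = 0.034 in limma). With the total rescaled without globin genes its change in TPM was 0.079. Without library 3 of 48 h or library 2 of 72 h the change in TPM was -0.31 or -0.18 and missed the threshold (adjusted p = 0.16 and 0.25).

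Late maturation genes of ubiquitin and autophagy were mixed. Of 30 genes of the ubiquitin system and terminal maturation 5 rose and 10 fell (10 rose without library 1 of 72 h), beside 24.7% and 34.5% of all tested genes, so the share that fell is near that of all. In TPM 1 of the list rose (5 with the total rescaled without globin genes) and 23 fell (median -0.80). The gene that rose on both scales was Rbm38, which regulates late erythroid splicing, with 653, 1017 and 1004 CPM at 72 h, against 158, 183 and 163 CPM at 48 h (log2 change 2.41 ± 0.14, adjusted p = 2.7e-11; 1.67 in TPM). Xpo7, an exportin of nuclear condensation that overlaps the weakly counted Npm2 on the same strand, had 2333, 3213 and 2838 CPM at 72 h, against 5417, 5807 and 5949 CPM at 48 h (log2 change -1.03 ± 0.11, adjusted p = 5.1e-08). Every library of 72 h was lower than those of 48 h for this gene and higher for Rbm38. Of 31 autophagy genes 10 rose and 10 fell, beside 24.7% and 34.5% of all tested genes (median 0.09, and -0.54 in TPM). Sqstm1, the cargo receptor p62, had 7534, 11861 and 9914 CPM at 72 h, against 2828, 3049 and 2001 CPM at 48 h (log2 change 1.90 ± 0.16, adjusted p = 4.4e-09; 1.17 in TPM). Bnip3l, the receptor that removes mitochondria from reticulocytes, had 682, 917 and 1049 CPM at 72 h, against 1326, 1494 and 1515 CPM at 48 h, lower in all libraries (log2 change -0.71 ± 0.13, adjusted p = 5.6e-05).

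Nuclear structure, chromatin and cytoskeleton lists leaned lower on the TMM scale, where 24.7% of all tested genes rose and 34.5% fell. Among 40 genes of the lamina, pores and nuclear transport 23 fell and 6 rose (median -0.47), with Kpna2, an importin, at 17.2, 16.0 and 24.7 CPM at 72 h, against 85.7, 95.03 and 132 at 48 h (log2 change -2.43 ± 0.15, adjusted p = 5.5e-11). Among 24 histone deacetylases and methylation enzymes 12 fell and 4 rose (median -0.39). The maintenance methyltransferase Dnmt1 fell by 1.95 ± 0.18 (adjusted p = 9.2e-09), and the de novo enzyme Dnmt3a, with 153, 208 and 101 CPM at 72 h, against 66.7, 72.4 and 49.7 at 48 h, rose by 1.29 ± 0.17 (adjusted p = 1.3e-06) and by 1.05 in TPM. Among 28 cytoskeletal genes of enucleation 16 fell and 6 rose (median -0.46), and among 22 splicing regulators 7 fell and 9 rose (median 0.06). In TPM 13 of the 22 splicing regulators fell and 2 rose, with a median of -0.50. The share that fell and the median are near the 59.3% and -0.45 of all tested genes.

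The BCL2 family and caspases held both directions. Of 28 genes of the BCL2 family and caspases 6 rose and 10 fell (median 0.04), shares near the 24.7% and 34.5% of all tested genes, and with the size factors of DESeq2 10 rose and 6 fell. In TPM 3 of 25 rose and 14 fell (median -0.42). Bax, which opens the outer mitochondrial membrane, had 457, 408 and 362 CPM at 72 h, against 92.1, 63.0 and 41.9 CPM at 48 h, and no 72 h library came near those of 48 h (log2 change 2.63 ± 0.19, adjusted p = 5.3e-10; 1.86 in TPM). It overlaps Gm45808, which was not tested, on the same strand. Bcl2l11, the death activator BIM, had 39.4, 48.7 and 72.0 CPM at 72 h, against 18.6, 11.03 and 11.8 CPM at 48 h (log2 change 1.93 ± 0.20, adjusted p = 4.4e-08). Mcl1, a survival protein, had 93.0, 88.0 and 83.4 CPM at 72 h, against 249.6, 249.2 and 241 CPM at 48 h (log2 change -1.48 ± 0.07, adjusted p = 1.9e-12). Of the 16 tested p53 targets 2 rose, Bax among them, and 4 fell (median -0.02).

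Stress lists were mixed as well. Of 32 genes that answer the kinase HRI and ATF4, a pathway that matches globin synthesis to heme, 17 fell and 4 rose (median -0.58; 2 rose without library 3 of 48 h or 2 of 72 h). Ppp1r15a, which restores translation after stress, had 11124, 12593 and 12556 CPM at 72 h, against 5825, 5589 and 5485 CPM at 48 h (log2 change 1.10 ± 0.13, adjusted p = 5.7e-07), while its change of 0.39 in TPM did not pass (adjusted p = 0.10), except without library 3 of 48 h (0.59) or library 2 of 72 h (0.65). Mthfd2, an ATF4 target of mitochondrial folate metabolism, had 18.3, 23.3 and 23.7 CPM at 72 h, against 89.4, 110.3 and 118 CPM at 48 h, lower in every library (log2 change -2.28 ± 0.12, adjusted p = 8.5e-12). Of 19 targets of BACH1 and NRF2 8 rose (5 without library 3 of 72 h) and 5 fell (2 without library 1 of 72 h; median 0.22). In TPM 2 of 18 rose and 10 fell, and the median of -0.44 has the other sign. The share that fell and the median are near the 59.3% and -0.45 of all tested genes in TPM. Of 18 genes of peroxide defense 6 rose and 9 fell, led by Prdx6 with 386, 517 and 383 CPM at 72 h, against 164, 141 and 90.0 CPM at 48 h (log2 change 1.70 ± 0.16, adjusted p = 1.8e-08). Of 27 chaperones 6 rose and 8 fell (median -0.06), near the shares of all tested genes. Among 16 hypoxia-responsive genes 4 rose (2 without library 1 or 3 of 48 h or 2 or 3 of 72 h) and 3 fell (median 0.25). The share of these that rose is near that of all tested genes.

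Targets of the culture's signals were measured too. Of 19 targets of Epo and STAT5 11 fell and 1 rose (2 without library 1 of 48 h or of 72 h, 5 with the size factors of DESeq2; median -0.45). Erfe, erythroferrone, the erythroid hormone that lowers hepcidin, had 3.04, 4.41 and 6.21 CPM at 72 h, against 20.2, 28.1 and 36.4 CPM at 48 h, a 6.17-fold lower mean (log2 change -2.63 ± 0.23, adjusted p = 4.5e-09). Among 14 glucocorticoid receptor targets, with dexamethasone absent in both groups, 7 rose and 2 fell (median 0.52, and -0.13 in TPM, the other sign, or 0.36 with the total rescaled without globin genes). Of 15 feedback targets of Kit and ERK signalling 1 rose and 1 fell (each 1 to 3 on leaving out 1 library; median 0.05). In TPM none of 10 rose and 4 fell (median -0.50). In the MYC, MAX and MXD network 6 of 10 genes rose and 1 fell (2 without library 2 of 72 h; median 0.55; -0.03 in TPM, or 0.38 with the total rescaled without globin genes). Mxd1, an antagonist of MYC, had 4579, 6766 and 7553 CPM at 72 h, against 3497, 3913 and 3849.8 CPM at 48 h (log2 change 0.75 ± 0.14, adjusted p = 8.5e-05), and 0.16 in TPM (adjusted p = 0.45).

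Genes with large single changes outside these lists were named by the 15 largest rises and falls or the 10 largest in TPM. Cald1, the actin-binding caldesmon, had 27.9, 26.4 and 28.6 CPM at 72 h, against 0.154, 0 and 0.0800 CPM at 48 h, that is 1275 counts against 4. Trim30c, Gm6034, 4930438A08Rik and Gpr34, with means of 18.6, 15.3, 15.3 and 13.4 CPM at 72 h and 0.12, 0.171, 0.374 and 0.435 CPM at 48 h, had log2 changes of 7.18, 6.34, 5.34 and 5.03. Trim69, a ubiquitin ligase, had 211, 136 and 197 CPM at 72 h, against 5.58, 5.45 and 10.1 CPM at 48 h (log2 change 4.72 ± 0.22, adjusted p = 1.6e-12; 3.19 in TPM). Kdm5d, a Y-linked histone demethylase, had 96.1, 308 and 261 CPM at 72 h, against 6.403, 10.8 and 12.9 CPM at 48 h, high in libraries 2 and 3 of 72 h above all (log2 change 4.49 ± 0.32, adjusted p = 3.7e-10). Its X-linked relative Kdm5c had 244, 322 and 290.4 CPM at 72 h, against 433, 482 and 478 CPM at 48 h and fell (log2 change -0.70 ± 0.09, adjusted p = 1.4e-06). Dpp7, a lysosomal peptidase named for its rise in TPM, had 669, 449.9 and 319 CPM at 72 h, against 55.1, 37.0 and 26.2 CPM at 48 h (log2 change 3.59 ± 0.25, adjusted p = 1.8e-10). Among the falls beside Pklr, Sox6 and Slc25a37 were the transcriptional regulators Aff3, with 7.41, 11.4 and 13.6 CPM at 72 h, against 74.9, 75.9 and 79.9 CPM at 48 h (log2 change -2.83 ± 0.19, adjusted p = 1.4e-10), and Zbtb46, with 6.08, 6.48 and 8.41 CPM at 72 h, against 42.3, 54.1 and 45.9 CPM at 48 h (log2 change -2.76 ± 0.13, adjusted p = 2.4e-12). The groups did not overlap for any of these genes.

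A few genes had almost no counts in one group. Slc6a13 had 261 counts over the 72 h libraries against 1 over the 48 h libraries, a normalized ratio of 271 with a counting interval (95%, exact) of 48.2 to 10751. Pdcd1lg2, which codes for the checkpoint ligand PD-L2, had 200 counts against 1, a ratio of 208 (36.9 to 8248). The pseudogene Nutf2-ps1 had 0 counts at 72 h against 480 at 48 h, at least 154-fold lower with the floor set at 3 counts over the group. These intervals and this floor allow for counting error alone.

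The calls were also set beside the level of RNA at 24 h. Of the 1236 tested genes with the highest mean CPM at 24 h, all of at least 122 CPM, 15.8% rose and 64.1% fell, with medians of -0.52 on the TMM scale and -1.08 in TPM. Of the 1236 genes between 7.46 and 14.1 CPM at 24 h, 23.3% rose and 37.5% fell, with medians of -0.17 and -0.28. The genes lowest at 24 h are not read, because a gene that was low at 24 h passed the count filter only where it was high at another time.

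The last day was set against the step before it by the contrast of 72 h minus 48 h with 48 h minus 36 h. The steps last 24 h and 12 h and share the 48 h libraries. The difference was positive for 1410 of 12360 genes (11.4%) and negative for 2255 (18.2%) in edgeR. Interferon-stimulated genes had a median change of 2.22 from 36 h to 48 h already, and 4 of 29 had a positive (2 without library 2 of 48 h) and 3 a negative difference. Among the positive ones was Cxcl10, with 2.35 in the step before (difference 2.85 ± 0.39, adjusted p = 1.8e-05). Among the negative ones was Irf9, with 1.93 in the step before and 1.26 in the last day (difference -0.67 ± 0.18, adjusted p = 0.0082), which without library 3 of 48 h was -0.54 (adjusted p = 0.058).

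The median of ribosome biogenesis genes was -0.48 in the step before and 0.64 in the last day, and the difference was positive for 21 of 30 and negative for none (1 without library 3 of 48 h). Edf1 changed by -0.45 in the step before and by 1.22 in the last day (difference 1.67 ± 0.19, adjusted p = 2.7e-06). Membrane genes had a median of -0.25 in the step before, and 17 of 27 had a negative difference. The 13 mitochondrially encoded genes had a median of -0.19 in the step before, and 12 had a negative difference. Heme synthesis had a median of -0.08 in the step before, and 7 of its 8 genes had a negative difference (4 without library 1 of 36 h or library 2 or 3 of 48 h). Genes of the G2 and M phases had a median of -1.22 in the step before, and 10 of 31 had a negative difference (1 without library 3 of 48 h, 17 without library 3 of 72 h). Fitted on the compared libraries alone, the difference was positive for 13 ribosome biogenesis genes and negative for 10 membrane genes, 8 mitochondrially encoded genes, 3 heme synthesis genes and 1 gene of the G2 and M phases. For globins the difference was 0.07 for the alpha sum (adjusted p = 0.88) and -0.08 for the beta sum (adjusted p = 0.89).

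**Figure D4:**
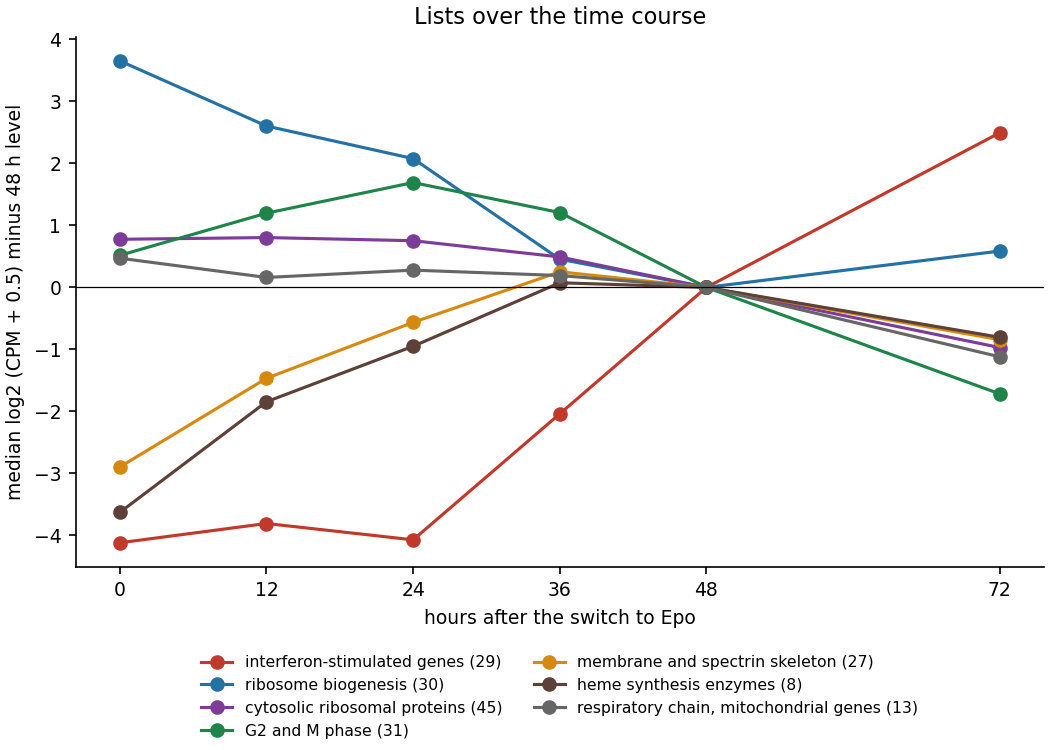
Median over each list of the log2 mean CPM (plus 0.5) relative to 48 h, at 6 times from 0 h to 72 h after the switch to Epo, for 7 lists. Interferon-stimulated genes lie at -4.07 at 24 h and 2.49 at 72 h, ribosome biogenesis declines to 48 h and stands at 0.59 at 72 h, and the other 5 lists are below 0 at 72 h.

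Markers of other cell types were low apart from a few genes. Summed megakaryocyte markers had 729 to 1122 CPM at 72 h, against 1628 to 1745 CPM at 48 h, most of it Itga2b. The mean of this sum was 19.6 CPM at 0 h, 112 CPM at 24 h and 1214 CPM at 36 h. Gp6, a collagen receptor of platelets, had 129, 128 and 129 CPM at 72 h, against 101, 83.8 and 72.6 CPM at 48 h and was higher (log2 change 0.58 ± 0.11, adjusted p = 1.6e-04), while Pf4 had means of 0.0871 CPM at 72 h and 0.0533 at 48 h, and Gp1bb, Ppbp and Clec1b were at 0. Mast cell markers summed to 32.6 to 37.1 CPM at 72 h, against 12.6 to 16.66 at 48 h, led by Mcpt4, with Mcpt8 and Prss34 at 0. Neutrophil markers summed to 6.10 to 8.08 CPM at 72 h and 2.97 to 6.59 at 48 h, with 6 of 11 at 0. Lymphocyte markers summed to 3.18 to 4.41 CPM at 72 h and 3.79 to 8.88 at 48 h. Stromal markers summed to 24.97 to 46.7 CPM at 72 h and 63.2 to 109 at 48 h, nearly all Col5a1. Endothelial markers summed to 1.88 to 3.00 CPM at 72 h and 0.565 to 1.04 at 48 h, and pluripotency markers to 1.92 to 3.79 CPM at 72 h and 0.418 to 1.90 at 48 h. Their part in the results was not tested.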

How the data were processed

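RNA of 21 libraries in 7 groups of 3 had been sequenced, and the 3 libraries of 72 h were compared with the 3 of 48 h. The authors deposited a table of estimated counts per gene and a table of TPM (transcripts scaled to 1 total per library), each with 22483 gene IDs in 1 column per library, and no column of per-sample values was left unused. STAR 2.5.3a, DESeq2 and kallisto are named in the submitters' processing notes, with the builds GRCm38.p5 and mm10, per the labels; which tool made which table is not given in the sources used here. Of the deposited counts 78.5% were whole (tolerance 1e-06), and all were rounded.

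Symbols and coordinates came from GENCODE M21 on GRCm38, and promoters from RefSeq on GRCm38.p6. Counts were fitted with edgeR 4.0.16 (R 4.3.3; quasi-likelihood F-test, TMM, filterByExpr with a minimum count of 10, 12360 genes, all 21 libraries). TPM were fitted with limma 3.58.1 (trend), as log2(TPM + 1), over the 9525 genes that averaged 1 TPM or more, and such fold changes understate the change of low genes. P-values were adjusted over all genes of a fit by Benjamini-Hochberg and called at 0.05. The SE was taken as the size of the log2 change over the root of its F statistic, and log2 changes run 72 h minus 48 h. The biological coefficient of variation was 11.6%. Normalized CPM are counts scaled by the TMM-scaled library size. A second contrast set 72 h minus 48 h against 48 h minus 36 h.

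Libraries of 1 number deviated together: the correlation of deviations from the group means over 6063 genes was 0.44, 0.38 and 0.45 for numbers 1, 2 and 3 between 72 h and 48 h, and 0.58, 0.21 and 0.50 between 48 h and 36 h, so the numbers pair the libraries. Fits with the number as a block are alternatives. No pair of libraries looked like 1 library deposited again. Whether the replicates came from separate cultures is not stated beyond the word biological, so p-values measure the spread between these libraries.

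The members and lists were chosen with earlier results of these data known. Named genes were the 15 largest rises and falls whose groups did not overlap and whose mean count reached 100, up to 3 called members per list and direction, the 2 most abundant members of each list, a panel of known erythroid genes, the 10 genes highest in TPM at 72 h, and the 10 largest rises and falls in TPM; genes outside these rules were named after their values were seen, and a few genes the rules name are not reported here. Alternatives were DESeq2 1.42.0 (size factors and Wald test), the compared libraries alone, library sizes that leave globin genes out, no filter on low counts, other pseudocounts and filters, TPM rescaled without globin genes or the 100 highest genes, and each library left out in turn. TPM with 1 fixed length per gene, and a ratio of mean TPM with no pseudocount, were added after the data were seen. On simulated counts of 72 h against 48 h over 12360 genes the edgeR fit recovered 64.2% of 1.5-fold, 95.5% of 2-fold and 100% of 4-fold changes, with 9 false calls among 12160 unchanged genes. These were planted in 67, 67 and 66 genes above a minimum level at 48 h, in random directions. The simulation held no effect of library number, and far fewer genes changed than were called in the data. Its rates were therefore not measured for low genes or for a change as broad as this one.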

Additional observations from a re-analysis of the deposited data

Results flagged for a closer look

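Each of the 10 genes here was picked because its change in the last day differed from its change from 36 h to 48 h by the edgeR test of that difference. For the first 5 the difference was positive. Cald1, the actin-binding caldesmon, had the largest difference, 11.85 ± 1.92 on the log2 scale (adjusted p = 1.4e-04); its mean was 1.03 CPM at 36 h, where library 1 held most of it, and the 48 h libraries held 4 counts. Gm10184 differed by 7.19 (adjusted p = 8.3e-04), with 13.2, 16.4 and 15.5 CPM at 72 h and 0.461, 0.752 and 0 CPM at 48 h. Oas1c, of a family of near copies that sense RNA, differed by 3.23 (adjusted p = 0.0022), with 86.3, 34.0 and 75.2 CPM at 72 h and 2.20, 1.25 and 2.64 CPM at 48 h. Plec, the cytoskeletal linker plectin, differed by 3.62 (adjusted p = 2.7e-07), with 153, 209 and 312 CPM at 72 h and 22.8, 19.98 and 26.5 CPM at 48 h. It overlaps Parp10, an interferon-induced gene on the same strand with means of 1335 CPM at 72 h and 162 CPM at 48 h, and the part of that overlap in the result was not tested. Apold1 differed by 3.20 (adjusted p = 1.9e-07), with 59.4, 61.4 and 59.8 CPM at 72 h and 5.63, 5.76 and 10.0 CPM at 48 h.

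For the other 5 genes the difference was negative. Gas7, a protein of actin bundling, differed by -3.20 (adjusted p = 1.5e-05), with 2.15, 3.44 and 2.27 CPM at 72 h and 27.3, 17.8 and 16.9 CPM at 48 h. Kif26b, a kinesin, differed by -3.35 (adjusted p = 8.3e-07), with 4.44, 4.34 and 5.34 CPM at 72 h and 21.8, 18.7 and 14.2 CPM at 48 h. In the last 3 genes 1 or 2 libraries carried the level at 48 h. Gm10031 had 10.5, 3.24 and 2.07 CPM at 72 h and 24.0, 1.57 and 0.560 CPM at 48 h, high in both libraries numbered 1, and its difference of -5.61 (adjusted p = 0.012) was 0.43 without library 1 of 48 h, where its change in the last day turned to 2.26. Rps27, a ribosomal protein gene with pseudogenes, had 16.73, 18.02 and 1.67 CPM at 72 h and 18.2, 3.51 and 71.5 CPM at 48 h, and its difference of -4.77 (adjusted p = 0.0056) was -1.85 without library 3 of 48 h (adjusted p = 0.28). Gm10273 had 3.93, 1.49 and 0.734 CPM at 72 h and 15.2, 13.2 and 0.8002 CPM at 48 h, and its difference of -4.24 (adjusted p = 0.043) missed the threshold in 6 of the 9 fits without 1 library (adjusted p = 0.071 to 0.21).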

How the results depend on the processing

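On the TMM scale 1546 of the genes higher and 1606 of those lower passed a fold of 2, and over the fits that left out 1 library 2803 to 2977 genes were higher and 4015 to 4238 lower. With the compared libraries alone 2663 genes were higher and 2955 lower, of 11156 tested in that fit. In TPM the number higher was 1475 with the total rescaled without globin genes, 2064 without the 100 highest genes, 917 with 1 fixed length per gene, 784 with all genes above 0 in 3 libraries, 150 at a fold of at least 2, and 330 to 688 on leaving out 1 library, 688 being without library 2 of 72 h. The number lower in TPM was 1823 at a fold of at least 2 and 4619 to 5850 on leaving out 1 library. It was 4539 with the compared libraries alone, where 308 genes were higher, and 3773 with a pseudocount of 10, where 335 were higher. The median change in TPM was -0.18 without the 100 highest genes, -0.056 with all genes above 0, -0.79 and -0.10 with pseudocounts of 0.1 and 10, -0.91 as a ratio of means with no pseudocount, and -0.53 to -0.33 on leaving out 1 library. The last day against the step before gave 629 positive and 1047 negative genes with the compared libraries alone (where 22 of 90 differences of named genes lost their call), 723 and 933 at a fold of at least 2, and 1124 to 1521 and 1839 to 2427 on leaving out 1 library. The fixed length and the ratio of means were chosen after seeing the data. Without the 100 highest genes the TPM change was 0.65 for Cdkn1b, 0.25 for Gata1 and 0.62 for Tal1, against 0.47, 0.079 and 0.45 without globin genes alone, and Tal1 was at 0.22 with 1 fixed length; the cause was not tested.

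With the replicate block, which pairs libraries of 1 number, 3142 genes were higher and 4328 lower on the TMM scale, 482 and 5920 in TPM, and 1521 and 2434 positive and negative against the step before. Among the genes the text names, in the fits over all 21 libraries, the block changed the calls of Irf9 in TPM and of Gm10273 in the last day (-2.29, adjusted p = 0.030) and no other. On the TMM scale, of 552 values of named genes and globin sums without 1 library, 543 kept their direction and side of the threshold. With 27 to 28 rises and no fall among interferon-stimulated genes in every TMM alternative, their median was 2.36 to 2.76. On leaving out 1 library, Gm10031 ranged from -1.75 to 2.26 in the last day and from -6.67 to 0.43 against the step before.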

Other observations

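The lists here were put together after the values were seen, from genes near those that rose most, so their counts describe them and support nothing. Genes of MHC class I and antigen processing were higher in 16 of 19 tested cases and lower in none, with a median log2 change of 1.59 on the TMM scale and 0.80 in TPM. Interferon-inducible GTPases, which coat the membranes around intracellular parasites, were higher in 12 of 13 and lower in none (median 2.33, and 1.47 in TPM). TRIM30 and related TRIM proteins were higher in 12 of 13 and lower in none (median 2.05). They are near copies, and the counting may have split their reads. NF-kB subunits, inhibitors and targets were higher in 13 of 17 and lower in 2 (median 1.48, and 0.56 in TPM).

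Sensors of nucleic acids, interferons and their receptors were counted too. Of 8 tested sensors of nucleic acids and their adaptors 3 were higher and 3 lower on the TMM scale (median -0.10). In TPM 1 of 7 was higher and 5 were lower (median -0.51). Of 15 interferon and receptor genes in the tables, 5 had counts enough to be tested, of which 1 was higher (2 without library 3 of 72 h) and none lower on the TMM scale (median 0.06). In TPM none of these 5 was higher and 3 were lower (median -0.51), beside 59.3% of all tested genes that were lower.

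A further 4 genes that the choice rules named had these values. Ifi47, an interferon-inducible GTPase that overlaps Olfr56 on the same strand (means of 103 CPM at 72 h and 4.51 CPM at 48 h), had 1066, 1485 and 2153 CPM at 72 h and 145, 115 and 173 CPM at 48 h (log2 change 3.45 ± 0.19, adjusted p = 8.0e-12). Plxnb1, a semaphorin receptor, had 14.3, 10.1 and 20.5 CPM at 72 h and 0.154, 0.752 and 1.04 CPM at 48 h (log2 change 4.62 ± 0.50, adjusted p = 1.1e-07). Lrp1, an endocytic receptor, was lower, with 1.46, 2.40 and 2.67 CPM at 72 h and 11.6, 13.5 and 14.7 CPM at 48 h (log2 change -2.61 ± 0.21, adjusted p = 1.7e-09). Klf10, a transcription factor among the 10 genes highest in TPM at 72 h, had 6282, 7118 and 9771 CPM at 72 h and 5449, 6559.8 and 6912 CPM at 48 h (log2 change 0.29 ± 0.22, adjusted p = 0.26; -0.60 in TPM, adjusted p = 0.18), groups that overlapped.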
